A study of Mus musculus with 23 samples.

Results

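The 14 Ctnnb1-knockout liver samples of this mouse series differed widely in their macrophage transcripts, and the 6 samples with the highest levels were set against the 6 with the lowest. The samples were chosen by measured values: for each knockout sample the log2 signals of C1qa, C1qb and C1qc (chains of complement C1q), Ctss (the protease cathepsin S), Lyz2 (lysozyme) and Cd68 (a lysosomal membrane protein) were averaged, and within each treatment the 3 highest and the 3 lowest samples were taken. That gave 12 of 23 samples, called macrophage-rich and macrophage-poor here. The middle knockout sample of each treatment was left out by the rule, and 9 wild-type samples served for comparison.

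All samples were liver RNA of male C3H mice, each measured on 1 Affymetrix expression array. In the knockouts, Cre recombinase driven by the albumin promoter acted on a Ctnnb1 allele with loxP sites around exons 3 and 6, so the deletion is aimed at hepatocytes and not at macrophages. Alb-Cre and floxed lines had been backcrossed to C3H, a strain prone to tumour promotion by phenobarbital. Mice ate feed with 0.05% phenobarbital for 12 weeks (7 knockout and 4 wild-type samples) or feed without it (7 knockout and 5 wild-type samples). For the controls, the sample labels list a water vehicle that is missing from the description of the treatment. Ages were not given in the sources used here. Nothing in the labels says that replicates are separate animals, so p values measure only the spread between these samples. In the label check, Ctnnb1 read 12.08 to 12.42 in the 12 samples and 12.03 to 12.23 in wild type, so its probe set did not separate the genotypes and checks nothing. Glul, the glutamine synthetase gene and a beta-catenin target, was between 7.68 and 9.87 in the 12 samples, below all wild-type samples (11.54 to 12.47).

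Liver macrophages comprise Kupffer cells, which live in the sinusoids and clear particles and bacteria from portal blood, and macrophages that arise from blood monocytes when the liver is injured. Both make C1q and lysosomal proteases. Hepatocytes answer signals from such cells with acute-phase proteins, and stellate cells lay down collagen where injury persists.

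The arrays correlated more closely within the macrophage-poor samples (Pearson r over all genes of 0.989 to 0.996) than within the macrophage-rich ones (0.979 to 0.993), and between the 2 kinds r was 0.943 to 0.984. The untreated middle sample, replicate 1, had a median r of 0.985 with the rich and with the poor samples alike. Untreated knockout replicates 2, 6 and 7, which stand apart from the poor samples over the whole array, are exactly the untreated macrophage-rich samples. Counts per gene group are therefore given also without these 3 arrays, where the contrast rests on the phenobarbital samples, and the difference with phenobarbital is given beside leading genes and beside those where it was over 1.5 times smaller than the one over both treatments. Only replicate 7 had an array weight under 0.5 once the 2 kinds of sample were modelled (0.285). Precision is limited by the small number of arrays.

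Among untreated knockouts the mean of the 6 genes was 10.64, 10.30 and 10.26 in the macrophage-rich replicates 6, 2 and 7. It was 8.17, 8.11 and 8.04 in the macrophage-poor replicates 4, 5 and 3. With phenobarbital it was 10.06, 9.88 and 9.72 in replicates 5, 4 and 7, against 8.85, 8.16 and 7.86 in replicates 1, 6 and 2. Below, values of single samples follow this order of replicates. The untreated groups lay 2.29 log2 units apart and the treated groups 1.59. At the edges of the choice, the untreated middle sample (replicate 1, 9.66) lay 0.593 under the lowest rich and 1.5 over the highest poor sample. The treated middle sample (replicate 3, 8.99) lay 0.727 under the lowest rich sample but only 0.138 over the highest poor one. All 9 wild-type samples, at 6.90 to 7.78, were below every knockout sample.

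**Figure D1:**
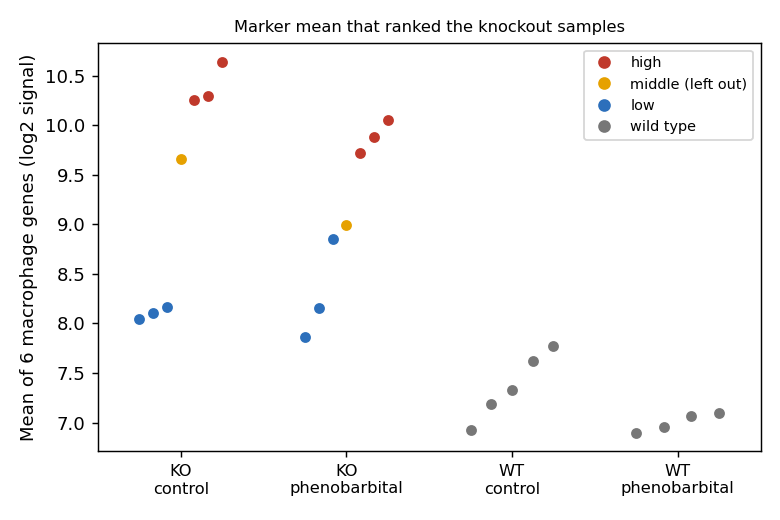
Mean log2 signal of C1qa, C1qb, C1qc, Ctss, Lyz2 and Cd68 in each of the 23 samples, by genotype and diet; each point is 1 sample. The knockout samples span 7.86 to 10.64, with red, orange and blue for the macrophage-rich, middle and macrophage-poor samples, and the wild-type samples span 6.90 to 7.78.

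Each of the 6 genes separated the chosen samples, as the choice makes likely. Lyz2 differed most, with 10.81 to 12.37 in the rich and 8.49 to 9.70 in the poor samples, and C1qa least, with 9.75 to 10.22 against 8.18 to 9.14. These values are a description, with no test. In whole liver, more macrophages and more of these transcripts per macrophage cannot be told apart.

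The question was which other transcripts went with the macrophage genes. Of 13820 genes tested, 4855 (35.1%) differed between the 6 rich and the 6 poor samples at an adjusted p under 0.05 (limma with treatment as covariate, Benjamini-Hochberg). Of these, 2503 (18.1%) were higher and 2352 (17.0%) lower in the macrophage-rich samples. With a difference of at least 2-fold, 512 were higher and only 62 lower. For 1740 genes (12.6%) the 3 rich samples lay above the 3 poor ones in both treatments, and for 1311 (9.49%) they lay below. With so many genes called, the counts per gene group are read against these shares. Groups are given by all their tested members, and members cited beyond the leading ones are examples picked with their values in view. The samples were sorted by measured transcripts, so the test is one of association between transcripts of the same livers, not of a treatment. Without the 3 untreated macrophage-rich arrays, where the contrast rests on the phenobarbital samples, 2113 genes were called, 1417 higher and 696 lower.

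The transcript that differed most was Ubd, which encodes the ubiquitin-like modifier FAT10, induced by interferon gamma and tumour necrosis factor (GRCm38.p6 chromosome 17, 37193892 to 37196101). Untreated, it read 12.91, 12.05 and 13.24 in the macrophage-rich and 4.39, 4.09 and 4.04 in the poor samples. With phenobarbital it read 11.99, 12.13 and 11.54 against 6.91, 6.18 and 4.58. The ranges are far apart in both treatments, and the poor untreated samples overlap with wild type (3.77 to 4.73). The log2 difference was 7.28 (SE 0.49, adjusted p = 1.92e-06), with 5.99 in the phenobarbital samples alone.

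Lcn2, the iron-scavenging acute-phase protein lipocalin 2 (chromosome 2, 32384637 to 32387739), was the next largest rise. It read 13.41, 12.50 and 13.24 against 5.05, 5.92 and 5.38 untreated, and 12.29, 12.37 and 11.97 against 7.33, 7.89 and 5.83 with phenobarbital (difference 6.40, SE 0.45, adjusted p = 2.94e-06; 5.19 with phenobarbital). Rich and poor samples did not overlap, but wild-type samples reached 8.86. Spink1, a trypsin inhibitor also made by liver tumours, was at 9.48, 9.70 and 8.68 against 4.15, 4.16 and 4.14 untreated, and at 9.10, 9.15 and 7.76 against 5.18, 5.03 and 4.45 with phenobarbital. Its difference was 4.46 (SE 0.31, adjusted p = 2.48e-06; 3.78 with phenobarbital). In the untreated poor samples it stood just below the wild-type range (4.17 to 4.53). These values, and those of Ubd there, are under 4.56, the mean of the 40th percentile of all probe sets, so the size of both differences is uncertain. Dio1, the deiodinase that activates thyroid hormone, differed by 4.12 (SE 0.41, adjusted p = 2.77e-05) and by more with phenobarbital (4.53) than without (3.70). Its poor samples read 5.97, 4.15 and 5.83 untreated and 4.45, 4.32 and 4.51 with phenobarbital. Several are under 4.56, so the size of this difference is uncertain as well. Wild type spanned 3.72 to 8.28 and overlapped both the poor and the rich samples (7.99 to 10.22). Gbp8, of the interferon-induced guanylate-binding proteins, differed by 4.19 (SE 0.59, adjusted p = 0.00023; 3.34 with phenobarbital).

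**Figure D2:**
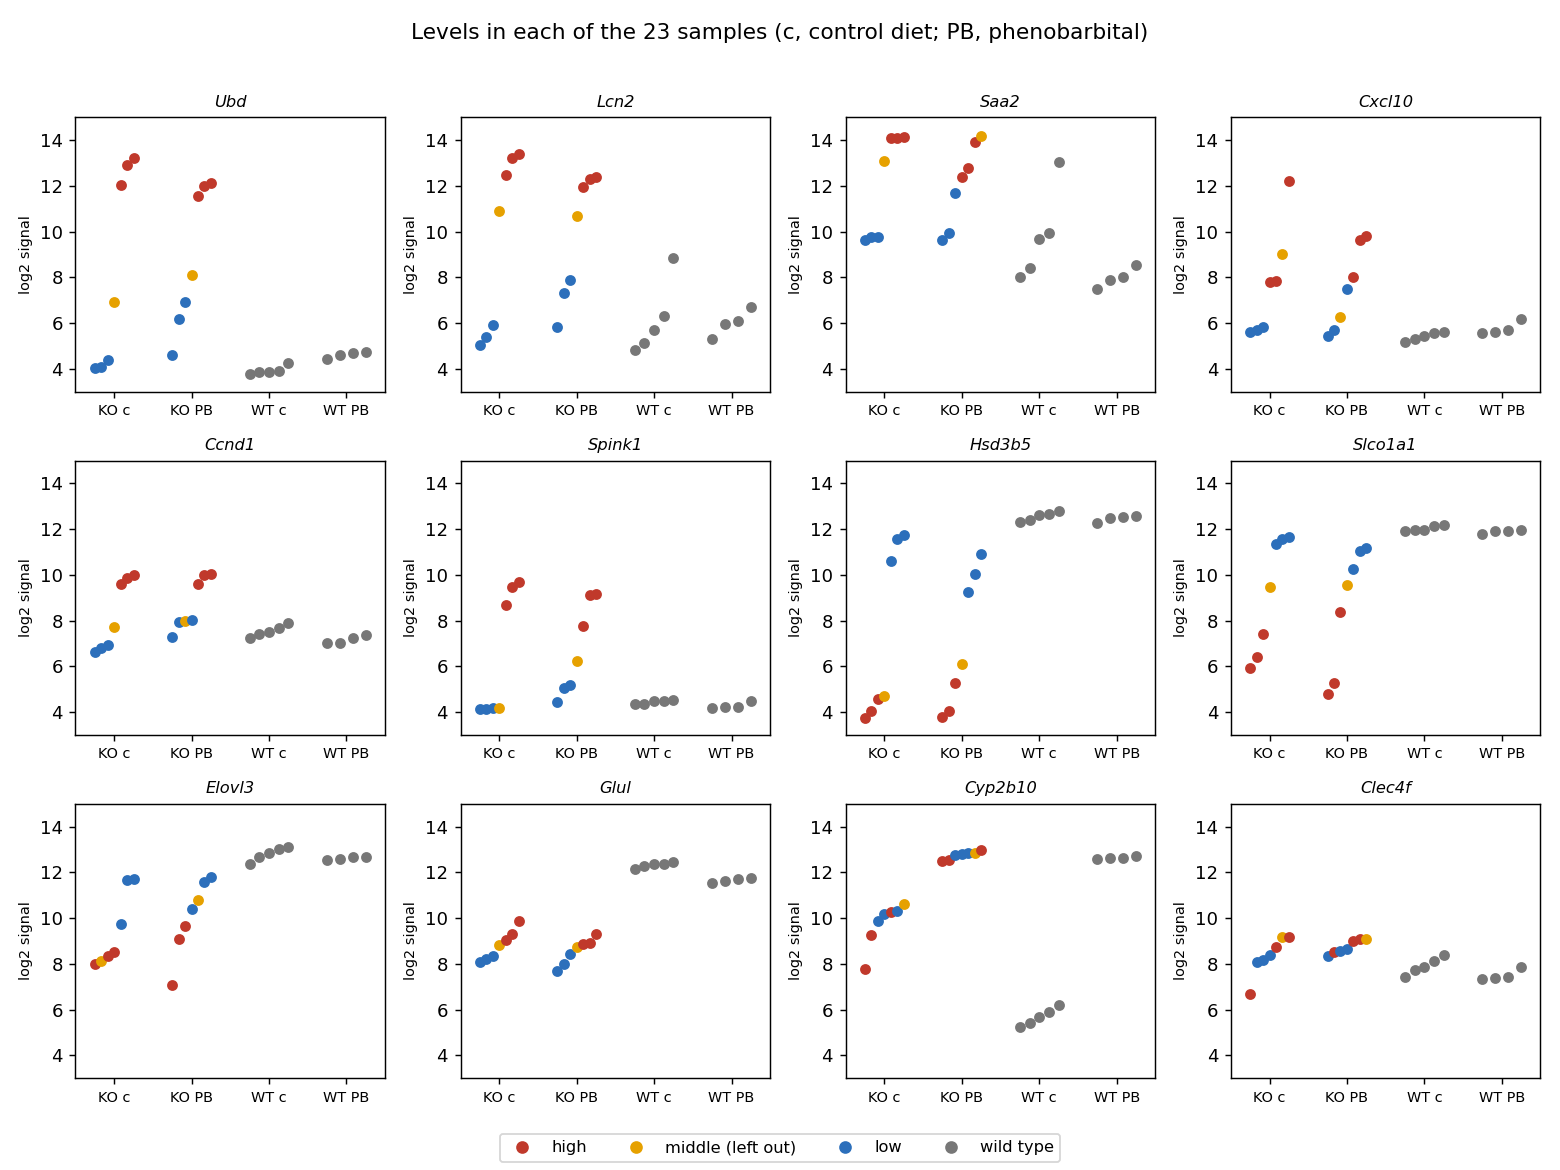
Log2 signal of 12 genes in each of the 23 samples, 1 point a sample, with knockout (KO) and wild type (WT) on control diet (c) or phenobarbital (PB). In Ubd, Lcn2 and Spink1 the macrophage-rich samples (red) lie far above the poor ones (blue); in Hsd3b5, Slco1a1 and Elovl3 they lie below; Cyp2b10 and Clec4f overlap.

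Other myeloid genes stand close to the choice itself and are described without a test. Of 21 pan-myeloid and phagocyte genes, 20 were higher in every rich than in every poor sample of the same treatment, with a median difference of 1.92 against -0.03 over all genes tested. Cybb, the catalytic subunit of the phagocyte NADPH oxidase, led them. It read 12.03, 11.91 and 12.03 against 7.08, 7.0 and 6.89 untreated, and 11.20, 11.97 and 10.59 against 7.95, 7.38 and 6.89 with phenobarbital. The beta-glucan receptor gene Clec7a differed by 2.62 and Cd52 by 2.52. The lipopolysaccharide co-receptor gene Cd14, outside that list, differed by 3.46.

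The gain was not uniform among macrophage genes. Of 13 monocyte and recruited-macrophage genes, 11 lay higher without overlap, led by the chemokine receptor gene Ccr2 (difference 3.00), Lgals3, which encodes galectin 3 (2.73), and Plac8 (2.21; 1.58 with phenobarbital). Ccr2 was at 8.55, 8.24 and 8.39 against 4.97, 4.91 and 4.90 untreated and at 8.15, 7.78 and 7.51 against 5.72, 5.23 and 4.89 with phenobarbital. The differences of its 4 probe sets ranged from 0.06 to 3.00. The lipid-binding Fabp5 was lower by 0.81. Gpnmb and Trem2, which mark lipid-laden and scar-associated macrophages, differed by 0.81 and 0.29 (Trem2 by 0.18 with phenobarbital), and Gpnmb did not exceed 5.55. The other of 2 Gpnmb probe sets differed by -0.05.

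Of 15 Kupffer cell genes, 8 lay higher without overlap. The scavenger receptor gene Marco differed most (3.71), followed by Il18bp (2.39; 1.78 with phenobarbital), Cd5l (1.76), Fcgr1 (1.76), Timd4 (1.74), Csf1r (1.54) and Adgre1 (1.36). Clec4f, the lectin whose expression defines mouse Kupffer cells, differed by 0.17 (SE 0.33). It was 9.18, 8.72 and 6.67 in the untreated rich against 8.06, 8.38 and 8.16 in the poor samples, and 9.01, 8.52 and 9.10 against 8.67, 8.55 and 8.35 with phenobarbital. Untreated replicate 7 thus had the lowest Clec4f of all 23 samples although its marker mean was high, and without it the difference was 0.53. Over the alternative limma fits the adjusted p of Clec4f ran from 0.00967 to 0.993, so whether it passed depended on the setting. Vsig4 in the same sample was 8.68 against 10.88 and 10.95 in replicates 2 and 6, and the haptoglobin-haemoglobin receptor gene Cd163 was 5.16 against 6.42 and 6.55. Its Timd4, at 8.01, was the highest of the untreated knockouts. Rich minus poor over both treatments, Cd163 differed by -0.52 (SE 0.26), Folr2 by 0.17 (SE 0.13) and Vsig4 by 1.03 (SE 0.32). Vsig4, Cd163, Folr2 and Timd4 were picked after their values were seen.

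Antigen presentation genes were higher in the macrophage-rich samples. Macrophages present antigen too, so the class II genes stand close to the choice and their calls are no support of their own. Of 9 class II genes 8 passed the test, all higher (median 1.95), and 6 were called with higher levels in the fit without the untreated rich arrays. Cd74, the invariant chain, read 11.23, 11.06 and 10.86 against 6.87, 7.28 and 7.06 untreated, and 10.81, 10.57 and 9.03 against 8.15, 6.99 and 6.84 with phenobarbital. H2-Ab1 differed by 3.02 (SE 0.34, adjusted p = 5.21e-05), H2-Eb1 by 2.82 and H2-Aa by 2.77. All 9 class I genes tested were called higher (median 1.17), 7 of them also without those arrays. The heavy chain gene H2-K1 differed by 1.64 (SE 0.11, adjusted p = 1.76e-06), and the immunoproteasome genes Psmb9 and Psmb8 by 1.60 and 1.52. In wild type H2-K1 read 12.00 and 11.81 in untreated replicates 1 and 5, above every knockout sample, and 8.73 to 9.19 in the others. The reason for this split was not tested.

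Interferon-induced genes formed 1 of the most uniform groups: 18 of 19 tested were called higher (median 1.68), and 13 without the untreated rich arrays. Gbp2, a guanylate-binding GTPase of antimicrobial defence, read 8.98, 8.20 and 11.71 against 5.72, 5.55 and 5.72 untreated, and 10.01, 8.42 and 8.44 against 7.73, 5.53 and 5.38 with phenobarbital (difference 3.35, SE 0.59, adjusted p = 0.00109). Ifit2, which restrains translation of viral RNA, differed by 3.07 (SE 0.38, adjusted p = 0.000105), and the antiviral GTPase Mx1 by 3.00 (SE 0.32, adjusted p = 3.55e-05; 2.43 with phenobarbital). Mx1 read 4.19 to 4.60 in the poor samples, near or under 4.56, so the size of its difference is uncertain. The level of the list varied within the rich samples. Untreated replicate 7 had the highest list mean (10.35), above replicates 6 and 2 (9.51 and 8.85) and the treated rich samples (8.31 to 9.11). The poor samples spanned 7.07 to 8.0.

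Chemokines were higher too, with 12 of 17 genes called and none lower (median 0.83; 8 without the untreated rich arrays). Cxcl9, which attracts activated T cells, differed by 3.92 (SE 0.58, adjusted p = 0.000317). Cxcl10, a ligand of the same receptor, was at 7.82, 7.84 and 12.23 against 5.82, 5.61 and 5.72 untreated, and at 9.83, 8.02 and 9.62 against 7.49, 5.71 and 5.44 with phenobarbital. Its difference of 3.26 (SE 0.69, adjusted p = 0.00346) was carried unevenly, since replicate 7 stood far above the other untreated rich samples. In the untreated samples alone its call was lost, and in the treated ones alone that of Cxcl9. The monocyte attractant Ccl2 differed by 1.88 and Ccl6 by 2.39.

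Because these genes moved together, their promoters were searched in the RefSeq windows (GRCm38.p6, 250 bases before to 50 after the transcript start listed there, which for Cybb and Saa3 lies inside the annotated span of the gene) for the core of the interferon-stimulated response element, GAAANNGAAA, on both strands. It stood in 3.44% of all 32851 promoters, in 3.61% of the 11115 genes tested that had one, in 5.60% of 1981 genes called higher and in 11.2% of the 394 higher by at least 2-fold, against 2.71% of 1885 called lower. Of 12 interferon-list genes with a promoter, 8 held it, which their listing as interferon-induced makes likely. Genes of that list also count among those called higher, and shares without them were not taken. The gamma-activated sequence core TTCNNNGAA was in 8.30% of all promoters, 8.53% of genes called higher, 12.7% of the 394 higher by at least 2-fold and 8.70% of those called lower, and in 3 of those 12. A match describes letters, not a bound site. The stretches below show the response element in genes of the preceding paragraphs and in Saa3, an acute-phase gene; each is written 5′ to 3′ along the gene's strand, with the motif in capitals, as GAAA first or, on the other strand, TTTC first.
Cxcl10 (chr5:92349040-92349139, minus strand): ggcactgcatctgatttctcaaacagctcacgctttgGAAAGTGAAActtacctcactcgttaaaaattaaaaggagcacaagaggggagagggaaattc
Gbp2 (chr3:142620559-142620658, plus strand): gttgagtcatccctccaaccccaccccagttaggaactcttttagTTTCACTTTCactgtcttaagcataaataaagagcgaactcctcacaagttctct
Cybb (chrX:9469438-9469537, minus strand): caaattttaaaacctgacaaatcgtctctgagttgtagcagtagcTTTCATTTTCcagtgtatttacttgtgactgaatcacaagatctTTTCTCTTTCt
Saa3 (chr7:46715747-46715846, minus strand): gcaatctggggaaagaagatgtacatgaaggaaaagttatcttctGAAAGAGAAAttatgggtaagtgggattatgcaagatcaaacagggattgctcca

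The acute-phase response was strong but selective. Of 20 genes 11 were called higher and 1, Itih4, lower by 0.24 (median 0.31; 10 higher without the untreated rich arrays). Saa2, a serum amyloid A protein, read 14.14, 14.10 and 14.11 against 9.63, 9.75 and 9.78 untreated, and 13.93, 12.77 and 12.39 against 9.95, 11.68 and 9.65 with phenobarbital (difference 3.50, SE 0.41, adjusted p = 6.47e-05). Treated replicate 6 was thus the highest of the poor samples, and the untreated rich values came close to the table's maximum of 14.92. Saa3, which macrophages also make, differed by 4.55 (SE 0.31, adjusted p = 2e-06), Orm2, an orosomucoid, by 4.35 (SE 0.49, adjusted p = 5.06e-05; 3.06 with phenobarbital), and Saa1 by 1.58 (SE 0.20, adjusted p = 0.000119). Hp, which encodes haptoglobin, differed by only 0.43 and Hpx, the haem-binding hemopexin, by 0.28, while the iron hormone gene Hamp (-0.02) and Crp (0.15) did not pass.

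Of 28 stellate cell and scar genes, 22 were called higher and none lower (median 0.71; 17 without the untreated rich arrays). Col3a1, a fibrillar collagen chain, read 12.43, 11.94 and 10.997 against 9.26, 9.27 and 9.63 untreated, and 10.74, 10.89 and 10.62 against 9.63, 9.18 and 8.55 with phenobarbital (difference 2.02, SE 0.25, adjusted p = 9.19e-05). Of the 6 poor samples 5 stood above the wild-type range of 8.01 to 8.75. Col1a2 differed by 1.91 (SE 0.25), the intermediate filament gene Vim by 1.88 and Timp1, an inhibitor of matrix proteases, by 0.96 (0.53 with phenobarbital). Of 3 Col1a2 probe sets, from 0.14 to 2.11, 2 were called higher. Which cells these transcripts came from was not tested. Col1a1 differed by 0.68 (0.35 with phenobarbital), and its call ended in either treatment alone and without any 1 of untreated replicates 2 to 5 or treated replicates 2, 4, 5 and 6. Acta2, the smooth-muscle actin of activated stellate cells, did not pass (0.27, SE 0.26, adjusted p = 0.443), nor did Des (0.10).

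Biliary and progenitor genes were split. Of 13 cholangiocyte and ductular genes 7 were higher and 1 lower (median 0.30; 5 and 0 without the untreated rich arrays). Anxa3 differed by 1.38, Cd24a by 1.32 and the adhesion molecule gene Epcam by 1.05 (SE 0.17, adjusted p = 0.000621). The other of 2 Epcam probe sets differed by 0.08 and was not called. Which cells these transcripts came from was not tested. Krt19, the keratin that defines bile ducts, differed by 0.18 (SE 0.12, adjusted p = 0.243) and stayed between 4.86 and 5.69 in the 12 samples. Sox9 differed by 0.30, and its call was lost without untreated replicate 4 or 6. Of 3 Sox9 probe sets 1 was called higher. Onecut1, a hepatobiliary transcription factor, was lower by 1.18, and its call was lost in either treatment alone.

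Proliferation genes were higher in 13 of 20 cases and never called lower (median 0.59; 12 without the untreated rich arrays). Ccnd1, cyclin D1, which drives entry into the cell cycle (chromosome 7, 144929931 to 144939831), read 9.61, 9.995 and 9.87 against 6.79, 6.61 and 6.93 untreated, and 10.05, 9.60 and 9.99 against 7.95, 8.04 and 7.30 with phenobarbital. Its difference was 2.58 (SE 0.19, adjusted p = 3.05e-06), with all rich samples above wild type (7.02 to 7.91). Mki67, a marker of cycling cells, differed by 1.97 (SE 0.32, adjusted p = 0.000556), and the replication helicase gene Mcm6 by 1.95. Of 3 Mcm6 probe sets, from 0.11 to 2.21, 2 were called higher. The mitotic genes Top2a (0.08), Cdc20 (0.03) and Plk1 (0.16) did not pass. Among 17 p53 and growth-arrest genes 9 were higher and 2 lower, but without the untreated rich arrays 4 were higher. Cdkn1a, the p21 inhibitor, differed by 1.68 untreated and by 0.48 with phenobarbital, where its call was lost.

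Genes of fetal liver and liver tumours were higher in 10 of 18 cases and lower in none (median 0.33), or in 2 under quantile normalization; without the untreated rich arrays 7 were higher. Beside Spink1 and Lcn2, they included Golm1, a Golgi protein raised in liver disease, at 9.89, 9.36 and 9.69 against 6.49, 6.72 and 6.46 untreated, and at 8.99, 8.90 and 8.52 against 6.75, 6.61 and 6.43 with phenobarbital (difference 2.65, SE 0.16, adjusted p = 1.44e-06). Its groups were narrow and well apart. Afp differed by 1.44 (SE 0.35, adjusted p = 0.00772), yet the groups overlapped and 5 probe sets ranged from 0.08 to 1.44; the call was lost in the untreated samples alone. The imprinted Igf2 (-0.10) and Meg3 (0.09) and the glypican gene Gpc3 (0.05) did not pass.

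**Figure D3:**
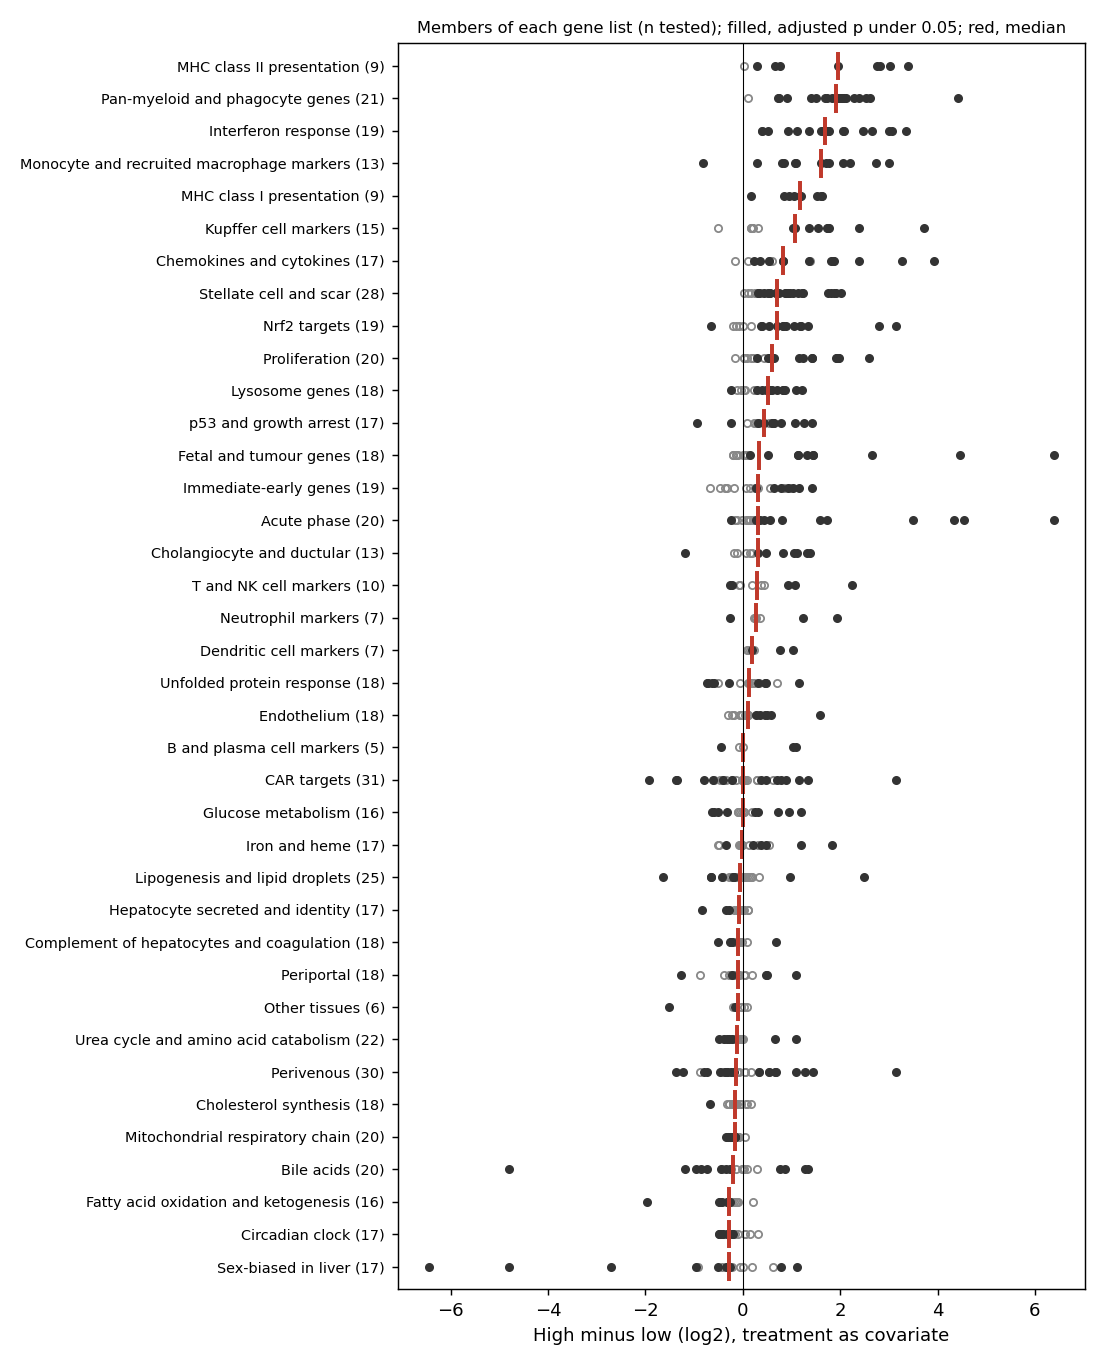
Difference of macrophage-rich minus macrophage-poor samples (log2) for each tested member of the gene lists, with the number tested in brackets; filled points passed an adjusted p under 0.05 and red bars are medians. Medians run from 1.95 for class II antigen presentation to -0.29 for the sex-biased genes.

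Markers of other leukocytes differed less. Of 10 T and NK cell genes 3 were higher (the NK receptor gene Klrd1 by 2.25, Nkg7 by 1.07 and the granzyme gene Gzma by 0.93), and Cd4 and Prf1 were lower by 0.21 and 0.27; without the untreated rich arrays 1 was higher and none lower. With phenobarbital Nkg7 differed by 0.70. Only Klrd1 was higher without overlap in both treatments. It read 3.38 to 3.85 in the poor samples, under 4.56, so the size of its difference is uncertain. Poor samples reached down to 4.14 for Nkg7 and 3.83 for Gzma. Cd3e, the T cell receptor component, read 5.70 to 5.79 in the rich and 5.75 to 5.96 in the poor samples (adjusted p = 0.302). Cd3d differed by 0.36 and Cd8a by -0.08. The B cell marker Ms4a1 differed by -0.07 (adjusted p = 0.609), and of 5 B and plasma cell genes Jchain and Blnk were higher and Ighm lower; of 11 Ighm probe sets, from -0.45 to 0.38, 1 was called lower and 1 higher, and the call of Ighm was lost without any 1 of untreated replicates 2, 3, 5 and 6 or treated replicates 2, 4, 6 and 7. The neutrophil genes S100a8 and S100a9, also made by monocytes, differed by 1.93 (SE 0.34, adjusted p = 0.00107) and 1.24 (0.70 with phenobarbital), with the highest values in untreated replicate 7 (9.43 and 9.27). Elane, more restricted to neutrophil precursors, was lower by 0.26, and Ngp (0.35) and Ltf (0.26) did not pass. Summed as list means, the neutrophil genes were 5.36 to 6.87 in the rich and 5.24 to 5.55 in the poor samples, and the T and NK cell genes 5.08 to 5.46 and 4.75 to 5.29. Their part in the differences was not tested.

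Of 18 endothelial genes 6 were higher (median 0.10; 3 without the untreated rich arrays). Lyve1, a hyaluronan receptor of sinusoidal and lymphatic endothelium, differed by 1.59 (SE 0.26, adjusted p = 0.000689), Plvap by 0.58 (0.38 with phenobarbital) and Pecam1 by 0.46, while the sinusoidal genes Stab2 (-0.01), Clec4g (0.07) and Kdr (-0.06) did not pass. Quantile normalization turned that split to 4 higher and 2 lower.

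The largest fall was that of Hsd3b5. This gene, which encodes a steroid dehydrogenase of male mouse liver (chromosome 3, 98618636 to 98645534), read 3.74, 4.58 and 4.05 in the macrophage-rich against 11.75, 10.62 and 11.57 in the poor samples untreated, and 3.77, 4.05 and 5.27 against 10.91, 9.26 and 10.05 with phenobarbital. The difference was -6.45 (SE 0.38, adjusted p = 1.37e-06; -5.71 with phenobarbital). Of the 6 rich values 4 were below 4.56, so the size of this fall is uncertain too. Wild-type samples read 12.27 to 12.79, above all poor samples. Slco1a1, an organic anion and bile acid transporter (chromosome 6, 141907281 to 141946962), read 5.94, 6.41 and 7.41 against 11.66, 11.35 and 11.59 untreated, and 4.81, 5.28 and 8.39 against 11.17, 10.27 and 11.04 with phenobarbital (-4.81, SE 0.50, adjusted p = 3.44e-05). Poor samples approached the wild-type range of 11.80 to 12.19, and treated replicate 7 kept the most of it among the rich ones. Elovl3, a fatty acid elongase, differed by -2.71 (SE 0.45, adjusted p = 0.000715) and the major urinary protein gene Mup10 by -1.96 (SE 0.32). With phenobarbital these 3 differed by -4.67, -2.66 and -1.78.

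Of 17 sex-biased genes 7 were lower and 2 higher (median -0.29; 4 and 1 without the untreated rich arrays). Cyp4a12a and Cyp2d9, also male-biased, were lower by only 0.35 and 0.26. Of the female-biased genes Sult1e1 was higher by 0.79, and Cyp2b13 (0.63), Cyp2b9 (-0.43) and Cux2 (-0.06) did not pass.

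Further genes with large falls were the serpin pseudogene Serpina4-ps1 (-4.16, SE 0.41), the noncoding RNA Hectd2os (-2.41), Cyp46a1, a cholesterol 24-hydroxylase (-2.21), Rfx4 (-2.08, by 1 of 2 probe sets, the other differing by -0.14), Dct (-2.02) and Obp2a (-1.98). Leap2, a liver hormone that blocks the ghrelin receptor, read 9.30, 9.83 and 8.90 against 11.49, 11.66 and 11.69 untreated, and 10.07, 9.62 and 10.16 against 11.45, 11.34 and 12.10 with phenobarbital (-1.98, SE 0.19, adjusted p = 1.77e-05). The poor samples matched or exceeded wild type (11.01 to 11.62). Fgf21, a fasting and stress hormone, differed by -1.98, with -2.69 in treated and -1.26 in untreated samples.

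In oxidative metabolism the genes that passed were lower. In the mitochondrial respiratory chain 13 of 20 genes were lower and none higher, with a median of -0.17. Sdha, of complex II, differed by -0.34 (SE 0.06, adjusted p = 0.0011) and Ndufv1, of complex I, by -0.31. Of 4 Sdha probe sets 2 were called lower. In fatty acid oxidation and ketogenesis 9 of 16 genes were lower (median -0.28), among them the carnitine shuttle genes Cpt2 (-0.48; -0.25 with phenobarbital) and Slc25a20 (-0.46; -0.30) and, by far more, Fgf21. Ppara, the nuclear receptor that drives that pathway, differed by -0.83 (SE 0.11, adjusted p = 0.000193). Without the untreated rich arrays, 4 respiratory chain genes and 3 oxidation genes were lower, and the calls of Cpt2 and Slc25a20 ended. In the treated samples alone it was 0 and 1. Of all 13820 genes, 2352 were called lower in the main fit, 426 in the treated samples alone and 696 without the untreated rich arrays. Of 17 clock genes 7 were lower, by at most 0.49, against 1 lower and 1 higher without those arrays.

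Of 20 bile acid genes 8 were lower and 4 higher (4 and 3 without the untreated rich arrays). The synthesis enzymes Cyp8b1, Cyp7b1 and Cyp27a1 differed by -1.19 (-0.76 with phenobarbital), -0.96 and -0.74 and the uptake carrier gene Slc10a1 by -0.86, whereas Cyp7a1, the rate-limiting enzyme, did not pass (-0.25). The basolateral exporters Abcc4 and Slc51b were higher by 1.35 and 1.28, and the canalicular phospholipid exporter Abcb4 by 0.86. Slc51b read 6.89 to 7.25 in the rich and 5.41 to 6.09 in the poor samples, without overlap.

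Few genes that define hepatocytes passed the test. Of 17 identity genes none was higher and 3, Ppara, Nr1h4 and Rxra, were lower (2 without the untreated rich arrays). Of 3 Rxra probe sets 1 was called lower. The call of Nr1h4 was lost without untreated replicate 4, 5 or 7 or treated replicate 2, 5 or 7. Alb read 14.76 to 14.82 in the rich and 14.74 to 14.80 in the poor samples, close to the top of the range (0.02, adjusted p = 0.666). Differences were -0.04 for Ttr, -0.08 for Hnf4a and 0.00 for Apoa1. Of 18 hepatocyte complement and coagulation genes 4 were lower and 1, the alternative pathway factor gene Cfb, higher by 0.68 (1 and 1 without the untreated rich arrays).

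Perivenous genes, which beta-catenin sustains around the central vein, did not move as a group: 8 of 30 were higher and 10 lower (5 and 3 without the untreated rich arrays). Glul read 9.30, 9.06 and 9.87 against 8.32, 8.07 and 8.21 untreated, and 9.30, 8.90 and 8.88 against 8.44, 7.98 and 7.68 with phenobarbital (1.10, SE 0.15, adjusted p = 0.000206). Lect2, a secreted hepatocyte protein, was higher by 1.45 and Oat, of ornithine breakdown, by 0.66, yet both stayed far under wild type: Lect2 at most 7.52 against at least 11.34, and Oat at most 8.47 against at least 11.35. Cyp2e1 did not pass (-0.89, SE 0.36, adjusted p = 0.0701; without untreated replicate 2 it did, at 0.0414, and so did its slope on the marker mean over all 14 knockouts, at 0.0206), nor did Axin2 (-0.19) or Lgr5 (-0.08), both direct Wnt targets. The periportal Cyp2f2 differed by -0.07 (adjusted p = 0.362).

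Targets of the constitutive androstane receptor, through which phenobarbital acts, were divided as well, with 8 of 31 higher and 7 lower (3 and 1 without the untreated rich arrays). Cyp2b10, the classical target, read 12.51 to 12.97 in the treated rich and 12.75 to 12.84 in the treated poor samples. Untreated it read 10.25, 9.24 and 7.76 against 10.31, 10.20 and 9.85 (over both treatments -0.58, SE 0.33, adjusted p = 0.186). Cyp2c54 differed by -3.10 untreated and by -0.76 with phenobarbital, and Cyp2c50 by -2.60 and -0.15; the call of Cyp2c54 was lost without the untreated rich arrays, and that of Cyp2c50 without untreated replicate 2, 3, 4 or 5 as well. These cytochromes are near-identical copies whose probes may share signal.

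Of 19 Nrf2 targets, antioxidant and conjugation genes, 13 were higher and 1 lower (median 0.70; 11 without the untreated rich arrays). Gstm3, a glutathione transferase, read 12.69, 11.29 and 10.28 against 7.04, 7.21 and 7.81 untreated, and 13.33, 12.66 and 13.01 against 10.84, 11.49 and 10.05 with phenobarbital (3.14, SE 0.44, adjusted p = 0.000211). Gstm2 differed by 2.79, Hmox1, haem oxygenase, by 1.20 (0.61 with phenobarbital) and Nqo1 by 0.83, but Gclc (-0.07) and Gclm (-0.20), of glutathione synthesis, did not pass. In lipid synthesis Scd2 was higher by 2.50 and G0s2, an inhibitor of fat breakdown, lower by 1.64, with Fasn (-0.08) and Scd1 (0.04) not passing. The glycolytic genes Hk2 and Pkm were higher by 1.20 and 0.96, the latter by 0.62 with phenobarbital.

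Lysosome genes were higher in 12 of 18 cases and lower in 1 (median 0.52), led by the proteases Lgmn (1.23) and Ctsc (1.10). Ctss and Cd68 of the rule are lysosomal too, so this list stands close to the choice. Its calls are no support of their own. Of 19 immediate-early genes 7 were higher, among them Klf6 by 1.42, while Fos (0.25) and Egr1 (-0.67) did not pass. Of 7 dendritic cell genes, which are myeloid too, 3 were higher, with Clec10a at 0.77. The cross-presentation factor gene Wdfy4 differed by 1.03, and its other probe set by -0.08. These calls are no support of their own either. In the unfolded protein response 4 of 18 genes were higher and 5 lower, with Atf3 at 1.15 and Trib3, a stress-induced pseudokinase, at -0.74 (-0.16 untreated, -1.31 with phenobarbital), and the chaperone gene Hspa5 did not pass (0.23). The urea cycle and amino acid list had 2 of 22 genes higher and 5 lower, periportal genes 3 of 18 and 2, iron and haem genes 5 of 17 and 1, glucose metabolism 5 of 16 and 4, and lipid synthesis 2 of 25 and 6. Of 18 cholesterol synthesis genes 1 was lower. Without the untreated rich arrays, 12 lysosome, 6 immediate-early, 2 dendritic cell, 3 unfolded protein response, 2 urea cycle, 1 periportal, 5 iron, 3 glucose and 1 lipid synthesis genes were called higher. Lower in that fit were 5 genes of the unfolded protein response, 2 periportal, 2 lipid synthesis, 1 urea cycle, 1 iron and 1 cholesterol synthesis genes, and none of the lysosome and glucose lists. Among markers of other tissues the pancreatic elastase gene Cela1 was lower by 1.51, and among 3 blood genes the erythroid Alas2 by 0.76.

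The untreated and treated comparisons rest on different arrays, so each repeats the other on samples it did not use. Fitted on the untreated samples alone 2604 genes were called, and 2540 of them (97.5%) differed in the same direction with phenobarbital, where 1152 (44.2%) were called too. Of the 1554 genes called in the treated samples alone, 1546 (99.5%) had the same direction untreated, against 79.9% of all genes tested. Across the 13820 genes, which are not independent replicates, the differences correlated with Pearson's r of 0.899 and Spearman's rho of 0.768. The 4855 genes called over both treatments were chosen on all 12 arrays, so their shared direction in each is no support of its own. Of them, 3927 differed more in untreated samples, where the marker gap was also wider; the median ratio of treated to untreated difference was 0.68. In the fit of all 12 arrays, 3719 genes (26.9%) passed for the untreated and 1262 (9.13%) for the treated difference. No gene passed a test of the difference between treatments (0%; limma interaction term, 1099 genes at an unadjusted p under 0.05). Without untreated replicate 2, however, 25 genes passed that test, without replicate 7 it was 9 and without replicate 6 it was 1.

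**Figure D4:**
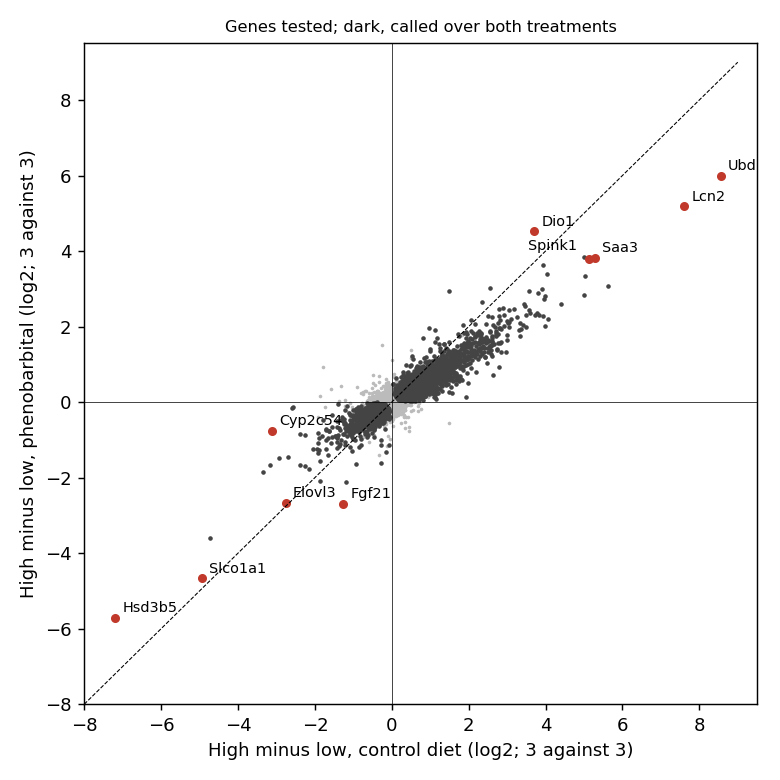
Macrophage-rich minus macrophage-poor difference (log2) of each of 13820 genes, untreated on the horizontal and phenobarbital on the vertical axis, 3 samples against 3 in each; dark points passed the test over both treatments and the dashed line marks equality. Ubd lies at 8.56 and 5.99, Hsd3b5 at -7.19 and -5.71, and Cyp2c54 at -3.10 and -0.76.

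The 2 knockout samples left out by the rule show how far each transcript went with the marker mean. They are single samples, and their values are a description. Between the means of the poor and the rich samples (0% and 100%), the marker mean of untreated replicate 1 stood at 67.9% and that of treated replicate 3 at 44.0%. The acute-phase list stood at 92.1% and 115%, with Saa2 at 13.11 and 14.18, the latter above all rich samples of its treatment. Hsd3b5 was already at 4.68 and 6.11, or 92.2% and 69.4% of the way down. Spink1, by contrast, was at 4.16 and 6.22 (0.24% and 35.3%), with 4.16 too dim to place exactly, Ccnd1 at 7.71 and 7.96 (30.6% and 9.32%), and Ubd at 6.92 and 8.12 (32.1% and 37.2%). Golm1 was at 3.47% and -9.14%, Leap2 at 8.8% and 17.6%, and the scar list at -5.11% and 16.8%. Cxcl10 differed between them, at 92.0% and 1.19%. Of the 4855 called genes, 37.8% in untreated replicate 1 and 29.9% in treated replicate 3 lay nearer the rich mean.

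**Figure D5:**
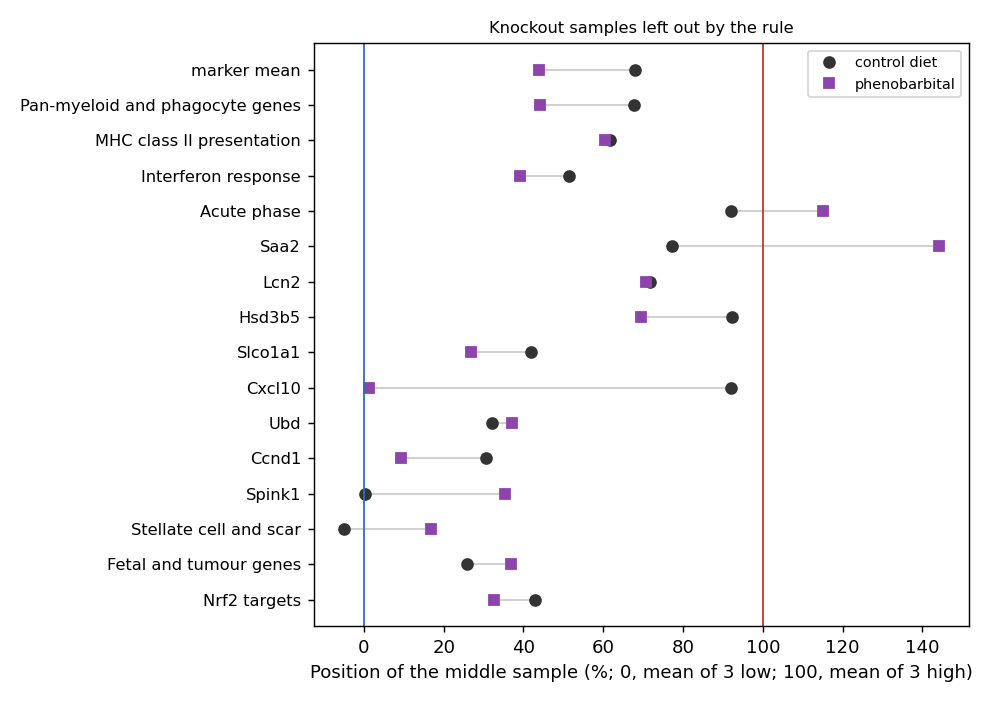
Position of the 2 left-out knockout samples between the mean of the 3 macrophage-poor (0%) and the 3 macrophage-rich samples (100%) of the same treatment, for the marker mean, gene lists and single genes. The acute-phase list (92.1% and 115%) and Hsd3b5 (92.2% and 69.4%) lie towards the rich samples, and the scar list (-5.11% and 16.8%), Ccnd1 and Spink1 towards the poor ones.

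Wild-type livers, which the rule did not use, had a narrow range of the marker mean, 6.92 to 7.78 untreated and 6.90 to 7.10 with phenobarbital. The slope of each gene on the marker mean, with treatment as covariate, passed for 58 genes (0.420%), 50 of them upward, and 2373 reached an unadjusted p under 0.05. Of the 4855 genes called in knockout, 3023 had a wild-type slope of the same sign. That share was not taken over all genes tested, so nothing is read from it. Of the 58 genes, 35 were called in knockout too, beside 35.1% of all genes tested, and 30 of them had the same sign. Csf1r rose by 1.18 per log2 unit of the marker mean (SE 0.12), Cd5l by 1.13 and Clec4f by 1.10. These macrophage genes stand close to the marker mean itself, so their slopes are a description. Ccl6 rose by 1.65 per unit (SE 0.23, adjusted p = 0.0295), but as a chemokine gene of myeloid cells it stands close to the marker mean as well. Saa1 rose by 3.55 per unit (SE 0.62, adjusted p = 0.0478). The other large slopes, for C730036E19Rik (3.87), Celsr1 (1.90) and Trhde (1.70), pointed upward, while in knockout C730036E19Rik and Trhde were lower by 0.66 and 1.18 in the rich samples and Celsr1 did not pass. Oat fell by 1.16 per unit in wild type and was higher in the rich knockouts. These calls rest on few arrays: without untreated wild-type replicate 4 only 1 gene passed, and without replicate 1 only 2. That replicate 1 had the highest marker mean of the wild types and read 13.07 for Saa2 and 8.86 for Lcn2, but 12.41 for Hsd3b5 and 3.90 for Ubd.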

How the data were processed

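Liver RNA of 23 samples was measured on Affymetrix arrays. The deposited log2 signals were made by the authors with RMA in affy, per the submitters' processing notes; tool versions and the set of arrays normalized jointly are not given in the sources used here. They were used as deposited. Of 45037 probe sets, 34945 map to 1 gene in the platform annotation, and 34741 of these took their symbol from RefSeq (GRCm38.p6). For 18193 genes, the brightest probe set on average stood for the gene. Genes above the 40th percentile of an array in at least 4 arrays were kept (13826), and the 6 marker genes were left out of the tests, leaving 13820. The contrast was fitted with limma 3.58.1 in R 4.3.3 over 12 arrays with treatment as covariate, two-sided, with Benjamini-Hochberg adjustment over all genes and calls at 0.05. Differences are log2, macrophage-rich minus macrophage-poor, with standard errors (SE). The fit was tested on simulated data.

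Named genes are the 12 largest rises and falls without overlap in either treatment, up to 3 per gene list with the largest differences, fixed markers, and 5 wild-type slopes. Of the fixed markers, Spp1 is not analysed here. The samples, the 39 gene lists and the tests were chosen with earlier results of these data known. Alternatives were other filters, scalings, probe set rules, priors, weights, choices of samples and a block for the replicate number. That number did not pair the samples. Promoter sequences are from RefSeq.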

Additional observations from a re-analysis of the deposited data

Results flagged for a closer look

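Of 280 groups of 4 to 7 samples, 8 held 1 sample far from the others. Chance alone marks about 1 in 20. Among untreated knockouts, Etnppl, a periportal phospholyase gene, was 9.12 in replicate 7 against 11.22 to 12.06, and Jun, an immediate-early transcription factor gene, was 8.65 there against 6.07 to 7.0. Blvrb, biliverdin reductase B, was 9.17 in replicate 6 against 8.18 to 8.44, and the biliary keratin gene Krt19 was 5.69 in replicate 2 against 5.09 to 5.34. These 3 samples are the macrophage-rich ones. Alb was 14.76 in the macrophage-poor replicate 4 against 14.79 to 14.81, a small gap in a narrow range. Among treated knockouts, the macrophage-rich replicate 5 had Jchain, the immunoglobulin joining chain gene, at 8.13 against 5.51 to 6.13 and Etnppl at 9.86 against 11.19 to 12.01. Cd3e was 6.03 in replicate 3, which the rule left out, against 5.70 to 5.81.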

How the results depend on the processing

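The samples chosen did not change when any 1 of the 6 marker genes was left out or z scores were averaged. Of 4855 genes (2503 higher, 2352 lower), the untreated samples alone gave 2604 (1552 and 1052), the treated alone 1554 (1128 and 426), and all arrays but untreated knockout replicates 2, 6 and 7 gave 2113 (1417 and 696). With the 2 highest and 2 lowest samples of each treatment 3334 were called, 1379 of them lower. Leaving out 1 array gave 3927 to 4782. Quantile normalization gave 5374 genes, 40.6% of them higher against 51.6% as deposited; the mean of probe sets gave 46.1%. With the replicate number as a block 2250 genes were called (1470 higher, 780 lower), but the numbers did not pair the samples: deviations of the 7 same-numbered pairs correlated between -0.693 and 0.627, and 0 of 7 correlated best with their own number. Of 138 named genes tested 128 were called, none reversed under any alternative, and 78 were called under all. The block ended 20 of these calls, the treated samples alone 37. The wild-type slopes gave 9 genes in untreated samples and 1 to 71 without 1 array. The cause of these shifts was not tested, beyond the smaller number of arrays. A difference between treatments was called for 0 genes with no filter, under both scalings, the mean of probe sets, the other prior and the 2 highest and 2 lowest samples, for 5 with array weights, for 183 with the replicate block and for 0 to 25 without 1 array; the last 4 of these settings were chosen after the data were seen. The 3-prime to 5-prime control ratio was not run as a covariate, as its probe sets are not analysed here. Low signals near background and high ones near 14.92 compress differences.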
